A study of Mus musculus with 17 samples.

Results

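Airway secretory cells line the conducting airways and release mucus, antibodies and antimicrobial proteins onto the airway surface. The 10 genes described here, of 19751 genes measured, encode transporters and secretion machinery that such cells use: Slc26a4, Slc5a1, Pigr, Galnt6, Gabrp, Itln1, Qsox1, Ern2, Scin and Creb3l1. They were chosen by symbol with the group differences of these same arrays already in view, without a stated threshold, so their differences between the groups are given as a description with no p-value of their own, and the counts of members past a threshold support nothing. Each of the 10 is read by 1 probe set that carries its symbol alone, and all 10 were measured on every array.

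Lung RNA came from 17 Balb/c mice, with 1 Affymetrix Mouse Gene 1.0 ST array for each mouse. The saline group held 6 mice that were given saline at sensitization and at challenge, with no antibody named in the labels. The isotype group held 5 mice that were sensitized to and challenged with ovalbumin (OVA), an egg protein used as an allergen, and were treated with an isotype antibody. The anti-RGMb group held 6 mice on the same ovalbumin schedule that were treated with a monoclonal antibody (mAb) against RGMb, a membrane co-receptor for bone morphogenetic proteins that binds neogenin. Lungs of all groups were taken at the same time point, and the labels give no age. The mice formed 2 replicate sets, here called experiment 1 (3 mice of each group, named 1, 2 and 3) and experiment 2 (3 saline, 3 anti-RGMb and 2 isotype mice, named 1-2, 2-2 and 3-2). No saline mouse is labelled as having had the isotype antibody and no mouse had anti-RGMb without ovalbumin, so the effects of allergen and antibody cannot be told apart in a comparison with saline. Median intensity per array was 120 to 125 in experiment 1 and 362 to 386 in experiment 2. The deposited intensities were taken to log2, and each mouse is shown as its log2 value minus the mean of the 3 saline mice of its own experiment. Levels of different genes are not compared, since probe sets differ in brightness.

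In the inflamed airway, interleukin 13 acts on the epithelium and turns many secretory cells into goblet cells, which store mucins in granules. Mucin polymers are linked by disulfide bonds and coated with O-linked sugars in the endoplasmic reticulum and Golgi, and they swell in a liquid layer whose volume and pH are set by anion, sodium and potassium transport. The same epithelium carries dimeric IgA from plasma cells to the lumen. Pendrin (Slc26a4) exchanges chloride for bicarbonate and other anions, SGLT1 (Slc5a1) takes up sodium with glucose, and Gabrp is the pi subunit of the GABA-A chloride channel. Pigr is the receptor that carries polymeric IgA across the epithelium. Galnt6 starts O-glycan chains, Qsox1 forms disulfide bonds, Ern2 (IRE1-beta) is the stress sensor of mucus-secreting epithelia, and Creb3l1 is a membrane-bound transcription factor of secretory cells. Scin (scinderin, or adseverin) severs actin filaments during exocytosis, and Itln1 (intelectin 1) is a secreted lectin. Qsox1 and Creb3l1 are also expressed by fibroblasts and other secreting cells.

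The start regions of 4 members are shown as examples. Slc26a4 and Slc5a1 separated the 3 groups, as did Galnt6, which is not shown. Scin and Itln1 varied with goblet cell markers within groups, as did Ern2, for which no window was matched. Each window runs 5′ to 3′ on the gene's own strand, from 250 bases before to 50 bases after the RefSeq start in GRCm38.p6. The windows lie at chr12:31559935-31560234 (Slc26a4, minus strand), chr5:33103969-33104268 (Slc5a1, plus strand), chr12:40134179-40134478 (Scin, minus strand) and chr1:171535245-171535544 (Itln1, minus strand). Capitals mark matches to CCACG on either strand, the last 5 bases of the ER stress response element; a match on the opposite strand reads CGTGG.
Slc26a4: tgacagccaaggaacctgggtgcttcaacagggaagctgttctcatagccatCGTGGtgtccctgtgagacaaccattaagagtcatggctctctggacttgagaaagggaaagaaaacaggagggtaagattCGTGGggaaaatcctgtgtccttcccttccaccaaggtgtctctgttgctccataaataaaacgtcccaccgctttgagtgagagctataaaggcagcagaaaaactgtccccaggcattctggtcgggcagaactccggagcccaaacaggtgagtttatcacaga
Slc5a1: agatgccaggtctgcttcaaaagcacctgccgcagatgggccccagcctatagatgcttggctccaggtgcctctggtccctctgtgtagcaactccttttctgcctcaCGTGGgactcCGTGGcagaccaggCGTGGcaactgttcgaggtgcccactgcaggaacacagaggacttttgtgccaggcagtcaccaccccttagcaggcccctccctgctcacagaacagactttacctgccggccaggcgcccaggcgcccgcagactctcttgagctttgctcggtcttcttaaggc
Scin: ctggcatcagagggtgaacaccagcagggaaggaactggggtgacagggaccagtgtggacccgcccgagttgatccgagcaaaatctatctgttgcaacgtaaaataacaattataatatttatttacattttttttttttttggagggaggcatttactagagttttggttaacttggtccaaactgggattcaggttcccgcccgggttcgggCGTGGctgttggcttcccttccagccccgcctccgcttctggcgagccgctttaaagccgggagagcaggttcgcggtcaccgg
Itln1: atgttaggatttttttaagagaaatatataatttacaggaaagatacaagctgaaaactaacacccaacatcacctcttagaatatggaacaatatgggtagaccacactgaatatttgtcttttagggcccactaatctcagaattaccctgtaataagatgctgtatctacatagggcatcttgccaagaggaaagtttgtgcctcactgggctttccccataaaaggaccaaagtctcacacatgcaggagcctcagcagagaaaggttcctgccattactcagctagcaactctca

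RefSeq windows of 300 bases were matched for 8 of the 10 members, 9 windows in all because Galnt6 has 2 starts, and none was matched for Ern2 or Creb3l1. CCACG was in 4 of the 9 windows and in 32.8% of all 32851 windows. Its first base lies at -198 and -117 from the start of Slc26a4, at -141, -131 and -117 of Slc5a1 and at -34 of Scin, all on the opposite strand, and at position 20 of 1 Galnt6 start on the gene's own strand. The STAT6 motif, TTC and GAA with 4 free bases between them, was in 0 of the 9 windows and in 6.95% of all windows. TGTTTAC, a forkhead motif, was in 0 of 9 and 3.65%, and TGACGTGG, an unfolded protein response element that overlaps CCACG read on the other strand, was in 0 of 9 and 0.676%. A match is a run of letters, not a measured binding site, and no match says only that these letters are not in the window.

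With ovalbumin and isotype antibody, 9 of the 10 genes were higher than with saline and Gabrp was lower; the adjusted p of limma, a linear model with moderated variances fitted to all genes, was under 0.05 for all 10. Over all genes, 35.6% passed that threshold, with 14.6% higher and 21.0% lower. Anti-RGMb lungs stood between isotype and saline lungs for all 10 group means. The threshold was passed by 6 members between anti-RGMb and isotype (5 lower, Gabrp higher), against 21.2% of all genes, 10% lower and 11.1% higher. Between anti-RGMb and saline, 4 members passed, all higher, against 6.50% of all genes, 4.26% higher and 2.24% lower. The 3 comparisons share arrays with each other, and since the members were listed with these results known, nothing is read from the counts. With 1 mouse left out they were 8 to 10, 4 to 7 and 3 to 7, the last 7 without isotype mouse 3. In these 17 fits, isotype against saline stayed past the threshold in 7 for Ern2, 9 for Creb3l1 and all 17 for every other member. Anti-RGMb against isotype stayed past it in 13 for Pigr and 11 for Qsox1, and anti-RGMb against saline in 7 for Qsox1. The median difference over all genes was -0.04, 0.03 and -0.01 in the same order. In whole lung, fewer cells of a type and less RNA per cell cannot be told apart.

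**Figure D1:**
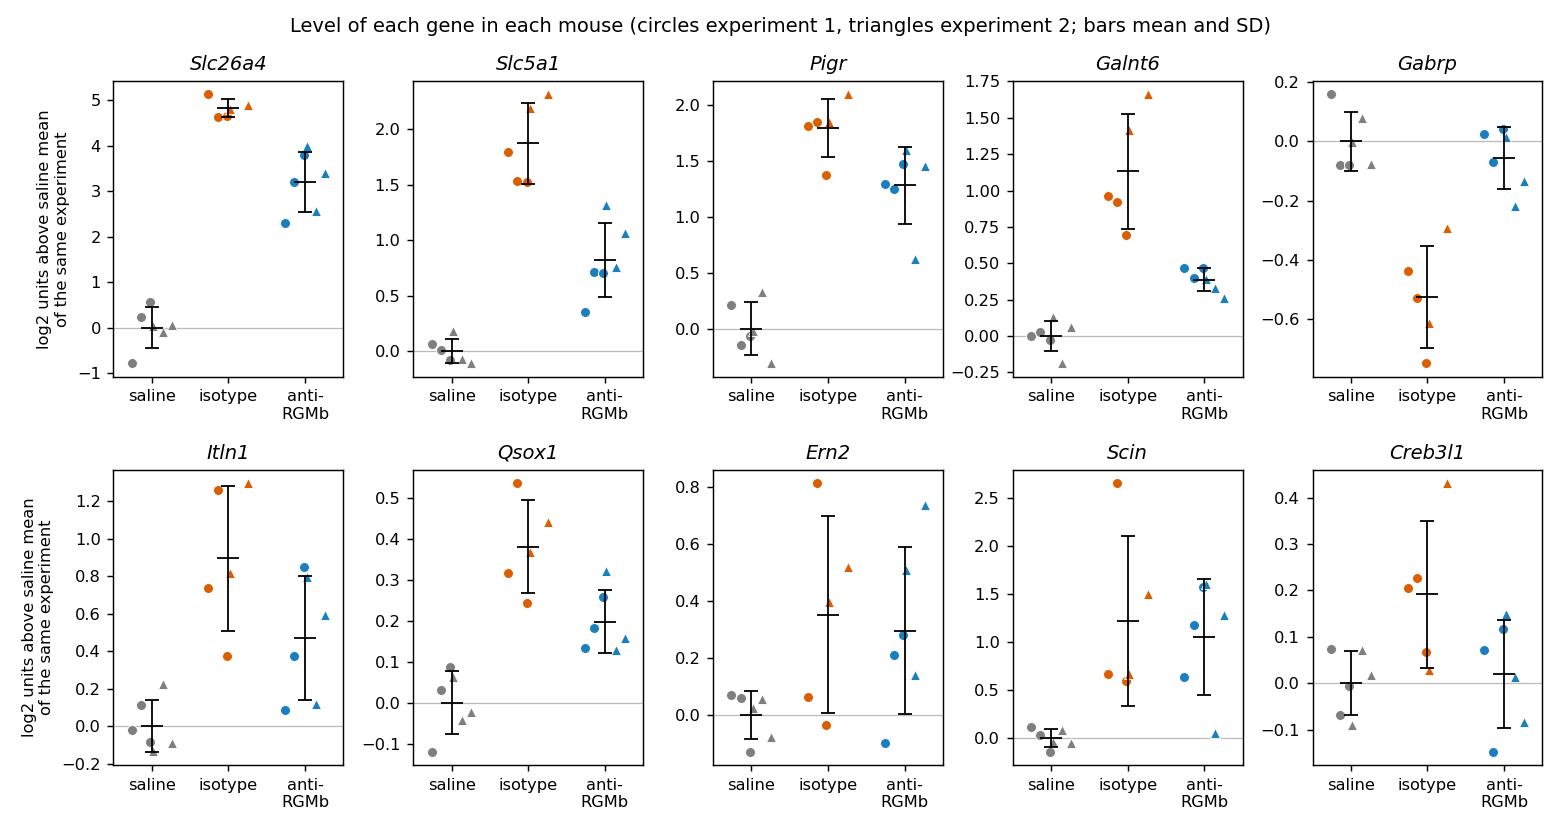
Level of each of the 10 genes in each mouse, as log2 units above the mean of the saline mice of the same experiment (vertical axis), for the saline, isotype and anti-RGMb groups (horizontal axis). Circles are mice of experiment 1, triangles mice of experiment 2, and bars the mean and SD; Slc26a4 isotype mice sit at 4.64 to 5.12 and anti-RGMb mice at 2.31 to 3.99, while the Scin isotype mice spread from 0.60 to 2.66.

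Among the transporters, Slc26a4 (chr12:31519814-31560055) had the widest difference. Its values in saline mice ran from -0.78 (mouse 1) to 0.55 (mouse 3), with a median of 0.05. The 5 isotype mice stood at 5.12, 4.64, 4.65, 4.80 and 4.90, in the order 1, 2, 3, 1-2 and 2-2. The 6 anti-RGMb mice ran from 2.31 through a median of 3.30 to 3.99. Every isotype mouse was above every anti-RGMb mouse, and every anti-RGMb mouse above every saline mouse. Pendrin was 28.5-fold higher with isotype than with saline (log2 difference 4.83 ± 0.27, SE), rank 6 of 19751 genes by size of the difference. Under anti-RGMb it was 3.09-fold lower than with isotype (-1.63 ± 0.27), rank 17 by size, and 9.24-fold higher than with saline (3.21 ± 0.25), rank 10. The difference from saline under anti-RGMb was thus 66.4% of that under isotype on the log2 scale, 64.5% in experiment 1 and 68.3% in experiment 2. In 2 of the 6 saline arrays Slc26a4 lay below the lower quartile of all genes, where the array compresses differences, so its size against saline is uncertain.

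Slc5a1 (chr5:33104219-33162699), the sodium-glucose transporter, separated the 3 groups in the same order. Saline mice ran from -0.11 through -0.03 to 0.18. Isotype mice stood at 1.79, 1.54, 1.52, 2.20 and 2.32, and anti-RGMb mice ran from 0.36 through 0.73 to 1.32. No group overlapped another, with the highest anti-RGMb mouse next to the lowest isotype mouse. The gene was 3.75-fold higher with isotype than with saline (1.91 ± 0.12), 2.13-fold lower under anti-RGMb than with isotype (-1.09 ± 0.12) and 1.77-fold higher under anti-RGMb than with saline (0.82 ± 0.12). Of the isotype difference from saline, 43.0% was left under anti-RGMb.

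Gabrp (chr11:33550781-33578978), the chloride channel subunit, ran the other way. Saline mice lay between -0.08 and 0.16. Isotype mice stood at -0.44, -0.53, -0.75, -0.61 and -0.29, below all saline mice, and anti-RGMb mice ran from -0.22 through -0.03 to 0.04, above all isotype mice. The highest isotype mouse, 2-2, lay close to the lowest anti-RGMb mouse, 2-2 of its own group. The differences were -0.52 ± 0.08 for isotype against saline (1.44-fold lower), 0.47 ± 0.08 for anti-RGMb against isotype (1.38-fold higher) and -0.06 ± 0.07 for anti-RGMb against saline, where the 2 groups overlapped. Markers of ciliated and club cells moved in the same directions. With isotype, 8 of 8 ciliated markers and 6 of 8 club markers were lower than with saline, and 7 and 5 of them were higher under anti-RGMb than with isotype. The mean of the ciliated markers was -0.09 to 0.16 in saline, -0.72 to -0.22 in isotype and -0.23 to 0.09 in anti-RGMb mice, and that of the club markers -0.18 to 0.32, -0.75 to -0.25 and -0.27 to 0.28. Their part in the Gabrp difference was not tested.

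Pigr (chr1:130826684-130852249), the IgA transporter, was high in every ovalbumin mouse. Saline mice ran from -0.31 to 0.33. Isotype mice stood at 1.81, 1.84, 1.37, 1.85 and 2.09, and anti-RGMb mice ran from 0.62 through 1.37 to 1.59. Ovalbumin mice of both kinds were above all saline mice, and isotype and anti-RGMb mice overlapped. Pigr was 3.47-fold higher with isotype than with saline and the isotype mean over saline was 1.79 ± 0.26 (SD, n = 5). It was 2.43-fold higher under anti-RGMb than with saline (1.28 ± 0.15). The step from isotype to anti-RGMb was -0.52 ± 0.16. It ran from -0.62 to -0.38 over the 17 fits that left out 1 mouse.

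Of the genes that build mucins, Galnt6 (chr15:100689915-100729376) held the 3 groups apart, with a narrow anti-RGMb group. Saline mice ran from -0.19 to 0.13, anti-RGMb mice from 0.26 through 0.40 to 0.47, and isotype mice stood at 0.96, 0.92, 0.70, 1.42 and 1.66. The isotype mice of experiment 2 were the highest and those of experiment 1 lay about midway. Galnt6 was 2.21-fold higher with isotype than with saline (1.15 ± 0.12), 1.69-fold lower under anti-RGMb than with isotype (-0.76 ± 0.12) and 1.31-fold higher under anti-RGMb than with saline (0.39 ± 0.11).

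Qsox1 (chr1:155778155-155812899), the disulfide-forming oxidase, showed small and even differences. Saline mice ran from -0.12 to 0.09, isotype mice stood at 0.32, 0.54, 0.24, 0.37 and 0.44, and anti-RGMb mice ran from 0.13 through 0.17 to 0.32. All ovalbumin mice were above all saline mice, and isotype and anti-RGMb mice overlapped. The differences were 0.38 ± 0.06 (1.30-fold), -0.19 ± 0.06 and 0.20 ± 0.06 for isotype against saline, for the step from isotype to anti-RGMb and for anti-RGMb against saline. With 1 mouse left out the last 2 ran from -0.22 to -0.15 and from 0.17 to 0.22.

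Ern2 (chr7:122169893-122186239), the stress sensor of mucus cells, had a wide spread within both ovalbumin groups. Isotype mice stood at 0.06, 0.81, -0.03, 0.40 and 0.52, saline mice ran from -0.13 to 0.07, and anti-RGMb mice from -0.10 through 0.25 to 0.74. Isotype mice 1 and 3 lay within the saline range and mouse 2 far above it. The difference of isotype from saline was 0.37 ± 0.14 (1.29-fold) and ran from 0.24, without isotype mouse 2, to 0.45 when 1 mouse was left out. Anti-RGMb differed from isotype by -0.07 ± 0.14 and from saline by 0.30 ± 0.13.

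Creb3l1 (chr2:91982328-92024170), which promotes transcription of secretory pathway genes, had the smallest difference from saline. Isotype mice stood at 0.21, 0.23, 0.07, 0.03 and 0.43, saline mice ran from -0.09 to 0.07, and anti-RGMb mice from -0.15 through 0.04 to 0.15. All 3 groups overlapped. The differences were 0.19 ± 0.07, -0.17 ± 0.07 and 0.02 ± 0.07 in the same order as for Qsox1. The first ran from 0.13, without isotype mouse 2-2, to 0.25 when 1 mouse was left out.

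Itln1 and Scin, the lectin and the actin-severing protein, were higher in ovalbumin mice with wide spreads. Itln1 (chr1:171518123-171535325) ran from -0.13 to 0.22 in saline mice, stood at 0.74, 1.26, 0.37, 0.82 and 1.30 in isotype mice, and ran from 0.08 through 0.48 to 0.85 in anti-RGMb mice. It was 1.88-fold higher with isotype than with saline (0.91 ± 0.16), with no overlap, and the anti-RGMb mice overlapped both other groups (-0.44 ± 0.16 against isotype, 0.47 ± 0.16 against saline). Itln1 lay below the lower quartile of all genes in 6 of 6 saline and 4 of 5 isotype arrays, so these sizes are uncertain. Some mouse strains carry a nearly identical second intelectin gene, and the probe set cannot tell such copies apart. Its annotation also lists a transcript record that matched no RefSeq symbol here. The values given as Itln1 may therefore include signal of a second gene.

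Scin (chr12:40059769-40134228) ran from -0.14 to 0.11 in saline mice. Isotype mice stood at 0.67, 2.66, 0.60, 0.66 and 1.51, and anti-RGMb mice ran from 0.06 (mouse 2-2) through 1.23 to 1.60. Isotype mouse 2 was the highest of all mice, and anti-RGMb mouse 2-2 lay within the saline range. Scin was 2.31-fold higher with isotype than with saline (1.21 ± 0.33) and 2.08-fold higher under anti-RGMb than with saline (1.06 ± 0.31), and the 2 ovalbumin groups differed by -0.15 ± 0.33. That last difference turned to 0.20 without isotype mouse 2 and to 0.04 without anti-RGMb mouse 2-2, and that of Ern2 turned to 0.06 without isotype mouse 2. Scin lay below the lower quartile in 6 of 6 saline arrays and in 0 isotype arrays.

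**Figure D2:**
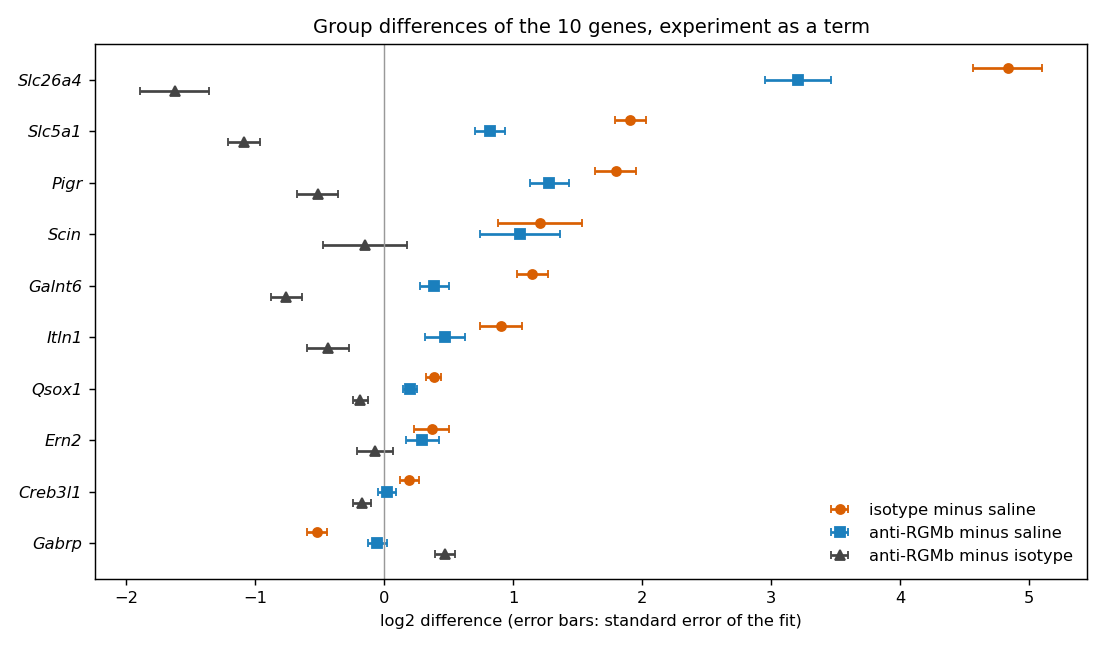
Log2 difference between groups (horizontal axis) for each of the 10 genes (vertical axis), with error bars of 1 SE from the fit with experiment as a term. Colours mark the comparisons of isotype with saline, of anti-RGMb with isotype and of anti-RGMb with saline; Slc26a4 reaches 4.83 and -1.63, while the anti-RGMb minus isotype values of Ern2 (-0.07) and Scin (-0.15) have error bars that cross 0.

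Set side by side, the share of the isotype difference from saline that was left under anti-RGMb ran from 10.3% (Creb3l1) and 10.7% (Gabrp) through 33.7% (Galnt6), 43.0% (Slc5a1), 51.7% (Qsox1) and 51.8% (Itln1) to 66.4% (Slc26a4), 71.2% (Pigr), 80.3% (Ern2) and 87.4% (Scin). In experiments 1 and 2 apart, the share was 51.8% and 21.3% for Galnt6, 46.5% and 101% for Ern2, 0.056% and 24.6% for Gabrp, 79.9% and 62.0% for Pigr and 36.5% and 46.5% for Slc5a1. The order of the shares is therefore loose. The shares of Itln1 and Scin also rest on saline arrays where these genes were dim, and Slc26a4 was dim in 2 of 6 saline arrays. Groups did not overlap for 8 members between isotype and saline (7 higher, Gabrp lower), against 23.5% of all genes, 10.6% higher and 12.9% lower. Between anti-RGMb and isotype 4 members did not overlap (Slc26a4, Slc5a1 and Galnt6 lower, Gabrp higher), against 10% of all genes, 5.12% lower and 4.89% higher. Between anti-RGMb and saline it was 5 members (Slc26a4, Slc5a1, Pigr, Galnt6 and Qsox1, all higher), against 6.84% and 4.18% higher.

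Whether a difference was the same in both experiments was not part of how the members were listed. It was therefore tested as an interaction, in a limma fit with 1 mean for each group in each experiment. Galnt6 differed between the experiments. Its mean log2 intensity in saline mice was 6.15 in experiment 1 and 8.09 in experiment 2. Whether this level has a part in the difference was not tested. Its isotype minus saline difference was 0.86 in experiment 1 and 1.54 in experiment 2, a gap of 0.68 ± 0.14 (adjusted p = 0.0309 over all genes, limma). Its anti-RGMb minus isotype difference was -0.41 and -1.21, a gap of -0.80 ± 0.14 (adjusted p = 0.0222, limma). Both gaps rest on the same isotype mice, and the anti-RGMb minus saline difference was 0.45 and 0.33, with an adjusted p of 0.983 (limma). Over all genes, 0.668% passed in the first interaction and 0.471% in the second. The first gap was past the threshold in 14 of 21 alternative fits (adjusted p 0.0141 to 0.104, limma) and was lost without saline mouse 1, 2, 3, 2-2 or 3-2 or isotype mouse 3 or 2-2. The second was past it in 16 of 21 (0.00935 to 0.0742) and was lost without anti-RGMb mouse 1, 3 or 2-2 or isotype mouse 3 or 2-2.

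Slc5a1 also had a larger isotype difference in experiment 2, 2.26 against 1.62, but that gap of 0.64 ± 0.20 did not pass (adjusted p = 0.197, limma, with 0.120 to 0.427 over the alternatives). The adjusted p of the other 8 members for this interaction was 0.879 to 0.997 (limma). Slc26a4 stood at 4.80 and 4.85 in the 2 experiments and at -1.70 and -1.54 for anti-RGMb against isotype. Pigr stood at 1.67 and 1.97 and at -0.34 and -0.75, and Scin at 1.31 and 1.08 and at -0.18 and -0.11.

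The members also differed in how far mice of the same group and experiment scattered. The residual SD, the spread left after group-by-experiment means, was 0.668 for Scin and 0.546 for Slc26a4, larger than in 99.7% and 99.6% of genes. It was 0.323 for Itln1, 0.305 for Pigr and 0.259 for Ern2, larger than in 98.4%, 98.1% and 96.7% of genes. Slc5a1 (0.179) lay above 84.6% of genes, Creb3l1 and Gabrp at 0.130, Galnt6 at 0.112 and Qsox1 at 0.0990, around the median of all genes, 0.117.

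These deviations were not independent between members. Over the 17 arrays, with 11 residual degrees of freedom, all 45 pairs of members had a positive Pearson r, from 0.06 to 0.93 with a median of 0.46, where the median over all pairs of genes was 0.004. An r above 0.8 was found for 3 pairs (6.67%), against 1.38% of all gene pairs. These r values are a description, because the genes of an array share its RNA, its airway content and its hybridization. The 3 pairs were Ern2 with Scin (0.93), Itln1 with Scin (0.90) and Itln1 with Ern2 (0.82). Spearman's rho for them was 0.89, 0.90 and 0.79. Without the 2 arrays farthest from the median of the first gene, isotype mouse 2 and anti-RGMb mouse 2-2 for Ern2 and isotype mouse 2 and anti-RGMb mouse 3 for Itln1, r was 0.84, 0.88 and 0.76.

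Scin, Ern2 and Itln1 ran with goblet cell markers, and less closely with ciliated and club cell markers, from mouse to mouse. Scin correlated with Muc5ac, the gel-forming mucin of goblet cells, at 0.97 (rho 0.93, and 0.94 without the 2 farthest arrays). Ern2 correlated with Clca1, a secreted goblet cell protease, at 0.94 (rho 0.88, and 0.88 without the 2 farthest), and Itln1 with Agr2, a disulfide isomerase needed for mucin folding, at 0.94 (rho 0.95, and 0.94). With the mean of 11 goblet markers, r was 0.93 for Scin, 0.93 for Itln1, 0.90 for Ern2, 0.73 for Pigr and 0.61 for Qsox1. It was 0.49 to 0.55 for Creb3l1 and Gabrp and only 0.30 for Slc5a1, 0.28 for Slc26a4 and 0.18 for Galnt6. Between groups, 6 of the 11 goblet markers were higher with isotype than with saline and 0 of 11 passed between anti-RGMb and isotype in either direction in limma (0 had an unadjusted p under 0.05). Their mean was -0.20 to 0.40 in saline, 0.50 to 2.44 in isotype (median 1.32) and 0.82 to 2.10 in anti-RGMb mice (median 1.46). Isotype mouse 2 had the highest goblet mean and the highest Scin and Ern2, and isotype mouse 3 the lowest goblet mean and the lowest Scin, Ern2 and Itln1 of the isotype mice. With the ciliated marker mean, r was 0.69 for Scin, 0.62 for Ern2, 0.77 for Itln1 and 0.67 for Pigr, and with the club marker mean it was 0.62, 0.54, 0.63 and 0.58. The part of airway or goblet cell content in the members' values was not tested.

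**Figure D3:**
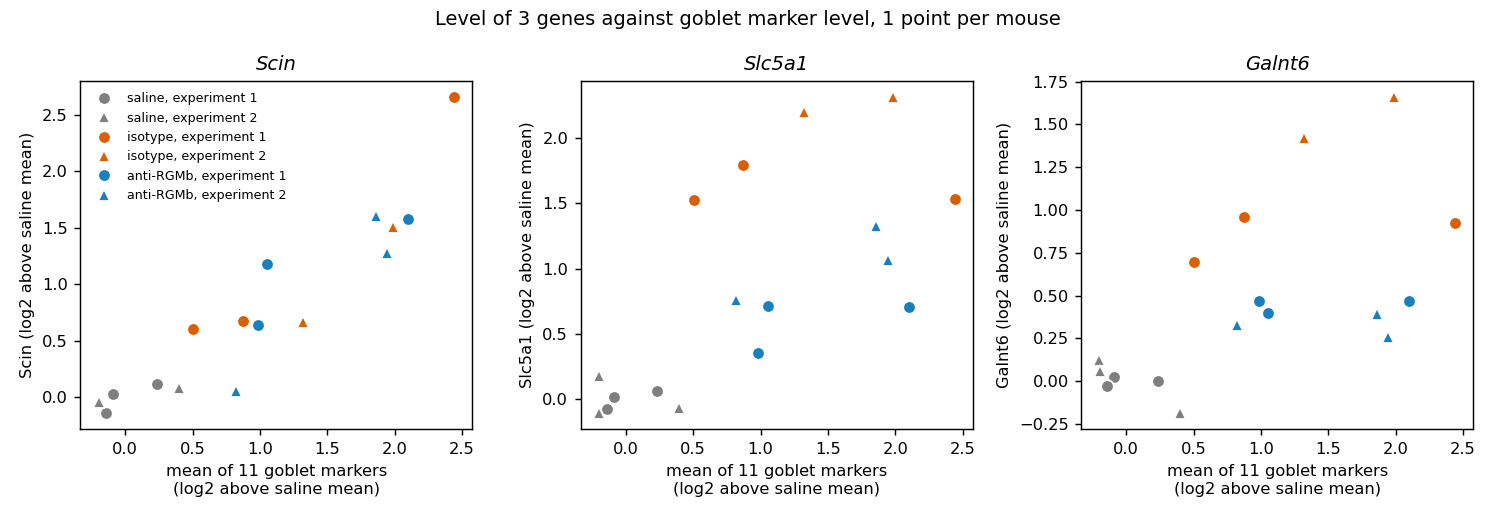
Level of 3 genes in each mouse (vertical axes, log2 above the saline mean) against the mean of 11 goblet markers (horizontal axes, log2 above the saline mean), 1 point for each of the 17 mice, by group. Scin follows the goblet mean across ovalbumin mice of both kinds (residual r 0.93). For Slc5a1 (residual r 0.30) and Galnt6 (0.18), all isotype mice lie above all anti-RGMb mice.

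Slc26a4 and Slc5a1 followed the goblet markers less closely. Their deviations correlated with each other at 0.64 (rho 0.58, and 0.72 without anti-RGMb mouse 1 and saline mouse 1), and at 0.94 over the 11 ovalbumin mice alone. Values nearly as high were found with other members, 0.62 for Slc5a1 with Pigr, 0.60 for Slc26a4 with Qsox1 and 0.52 for Slc26a4 with Itln1. Slc26a4 correlated with Il13 at 0.70 (rho 0.76), which became 0.53 without the same 2 arrays, and with Muc5ac at 0.36. Slc5a1 correlated with Muc5ac at 0.30 (rho 0.32), which became 0.06 without anti-RGMb mice 2-2 and 1-2. With the mean of 6 eosinophil markers, r was 0.69 for Slc26a4 and 0.66 for Slc5a1. It was 0.25 to 0.56 for Galnt6, Ern2, Gabrp, Pigr, Scin, Qsox1 and Itln1, and 0.13 for Creb3l1. All 6 eosinophil markers were higher with isotype than with saline and 5 of 6 were lower under anti-RGMb than with isotype. Their mean was -0.15 to 0.10 in saline, 1.59 to 2.27 in isotype and 0.51 to 1.62 in anti-RGMb mice. The part of eosinophil number in the pendrin and SGLT1 differences was not tested.

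Gabrp and Creb3l1 varied together at 0.79 (rho 0.80, and 0.74 without isotype mice 3 and 2-2), and Pigr and Gabrp at 0.77 (rho 0.79). Creb3l1, Itln1 and Gabrp followed the ciliated marker mean at 0.77, 0.77 and 0.75, and Creb3l1 and Gabrp the club marker mean at 0.71 and 0.65. Creb3l1 also followed the mean of 8 fibroblast markers at 0.69. Of those 8, 3 were higher and 4 lower with isotype than with saline. Of 8 general epithelial markers, 3 were lower with isotype and 5 did not pass, and their means overlapped between saline (-0.15 to 0.08) and isotype mice (-0.27 to -0.07). The plasma cell marker mean, relevant to Pigr as the source of IgA, was -0.07 to 0.09 in saline, 0.74 to 1.74 in isotype and 0.33 to 0.85 in anti-RGMb mice, and its residual r with Pigr was 0.01.

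**Figure D4:**
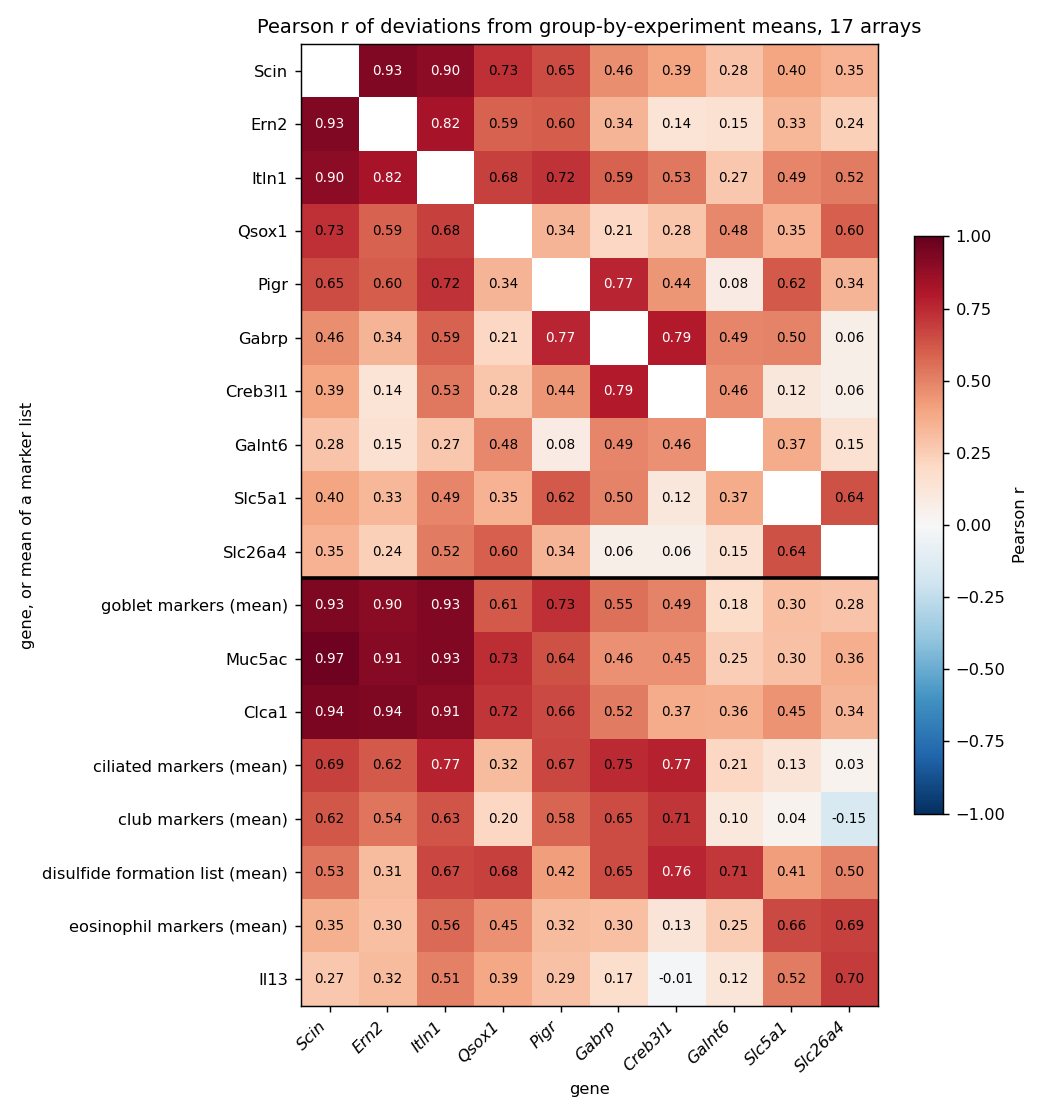
Pearson r between deviations from group-by-experiment means over 17 arrays, with the 10 genes along the horizontal axis and the 10 genes and the means of marker lists along the vertical axis; colour gives r. Scin, Ern2 and Itln1 form a block (0.82 to 0.93) with the goblet marker mean (0.90 to 0.93), while Slc26a4, Slc5a1 and Galnt6 have 0.18 to 0.30 with the goblet mean.

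The genes most like the mean of the 10 scaled members, over 17 arrays less the experiment means, were Agr2 (r = 0.98), Chil4 (0.97), Iqgap2, Slc38a1, Tnfaip8 and Alox12e (0.93 each). The members themselves had an r of 0.70 to 0.98 with that mean, except Gabrp at -0.50. For single members the closest gene was Mmp12 for Slc26a4 (0.99), Ezh2 for Slc5a1 (0.99), Ikbke for Galnt6 (0.99), Clec10a for Pigr (0.96), Tnfaip3 for Qsox1 (0.95), Agr2 for Itln1 (0.95), Muc5ac for Scin (0.98) and Ern2 (0.92), Eno4 for Gabrp (0.97) and Naa50 for Creb3l1 (0.90). These likenesses include the group differences. Over the deviations from group-by-experiment means, the closest to the mean of the 10 were Galnt5 (0.94), Chil4 (0.92), Agr2 (0.92), Myo5a (0.91), Map2k5 (0.90) and Alox12e (0.89). By that measure the closest gene was Muc5ac for Scin (0.97), Clca1 for Ern2 (0.94), Agr2 for Itln1 (0.94), Fbxw11 for Creb3l1 (0.91), Rlim for Gabrp (0.90), Eml3 for Pigr (0.90), Snx5 for Galnt6 (0.89), Washc5 for Qsox1 (0.89), Gm4788 for Slc26a4 (0.88) and Aox3 for Slc5a1 (0.87). A closest gene has the highest r of all non-member genes, so a high value is built into the choice. Of all gene pairs, 1.38% had an r of deviations above 0.8, and no link is read from a closest gene alone.

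The members' families and pathways were then counted in the same fit, with adjusted p-values from limma over all 19751 genes; the lists were drawn up by family or role, exclude the members and share some genes with each other. Among 10 other SLC26 anion exchangers, 2 rose, 1 fell and 7 did not pass with isotype against saline, with a median of 0.02. Slc26a9, a chloride channel of airway epithelium, fell by 0.58 ± 0.09 (adjusted p = 4.3e-05) and was 0.32 higher under anti-RGMb (adjusted p = 0.0129). Slc26a6, an exchanger of chloride for bicarbonate, rose by 0.27 (adjusted p = 0.00252) and was lower under anti-RGMb (-0.24, adjusted p = 0.00949). By size the largest differences of the relatives were these of Slc26a9 and Slc26a6, against 4.83 for pendrin. On every saline and isotype array 5 of the 10 relatives lay below the lower quartile of all genes, where differences are compressed. Of 12 SLC5 cotransporters besides Slc5a1, 1 fell and 11 did not pass. The gene that fell was Slc5a12, a lactate transporter, at -0.77 (limma adjusted p = 0.000298). Between anti-RGMb and isotype 0 of 12 passed in limma (2 had an unadjusted p under 0.05). Of the 12, 4 lay below the lower quartile on every saline and isotype array.

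Of 26 other genes of airway liquid transport, 6 rose, 11 fell and 9 did not pass with isotype, and under anti-RGMb 9 were higher and 3 lower than with isotype. The epithelial sodium channel subunits fell together: Scnn1b by 0.98 ± 0.07 (adjusted p = 9.8e-09), Scnn1g by 0.58 ± 0.08 (adjusted p = 1.2e-05) and Scnn1a by 0.51 ± 0.07 (adjusted p = 1.2e-05). Under anti-RGMb they were 0.70, 0.41 and 0.31 higher than with isotype, with adjusted p-values of 5.8e-06, 0.00104 and 0.00359. Kcnn4, a calcium-activated potassium channel that also works in lymphocytes, rose by 1.19 ± 0.10 (adjusted p = 4.0e-08) and was lower under anti-RGMb (-0.66, adjusted p = 0.000126). Cftr, the chloride channel that works beside pendrin, showed -0.05 ± 0.10 and 0.14 ± 0.10, with adjusted p-values of 0.755 and 0.35. Of 17 other genes in the GABA-A subunit list, 3 were lower with isotype and 14 did not pass. On every saline and isotype array 10 of the 17 lay below the lower quartile of all genes, where differences are compressed. Gabre was lower (-0.57, adjusted p = 5.2e-05) and was 0.39 higher under anti-RGMb (adjusted p = 0.00381), the direction of Gabrp.

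**Figure D5:**
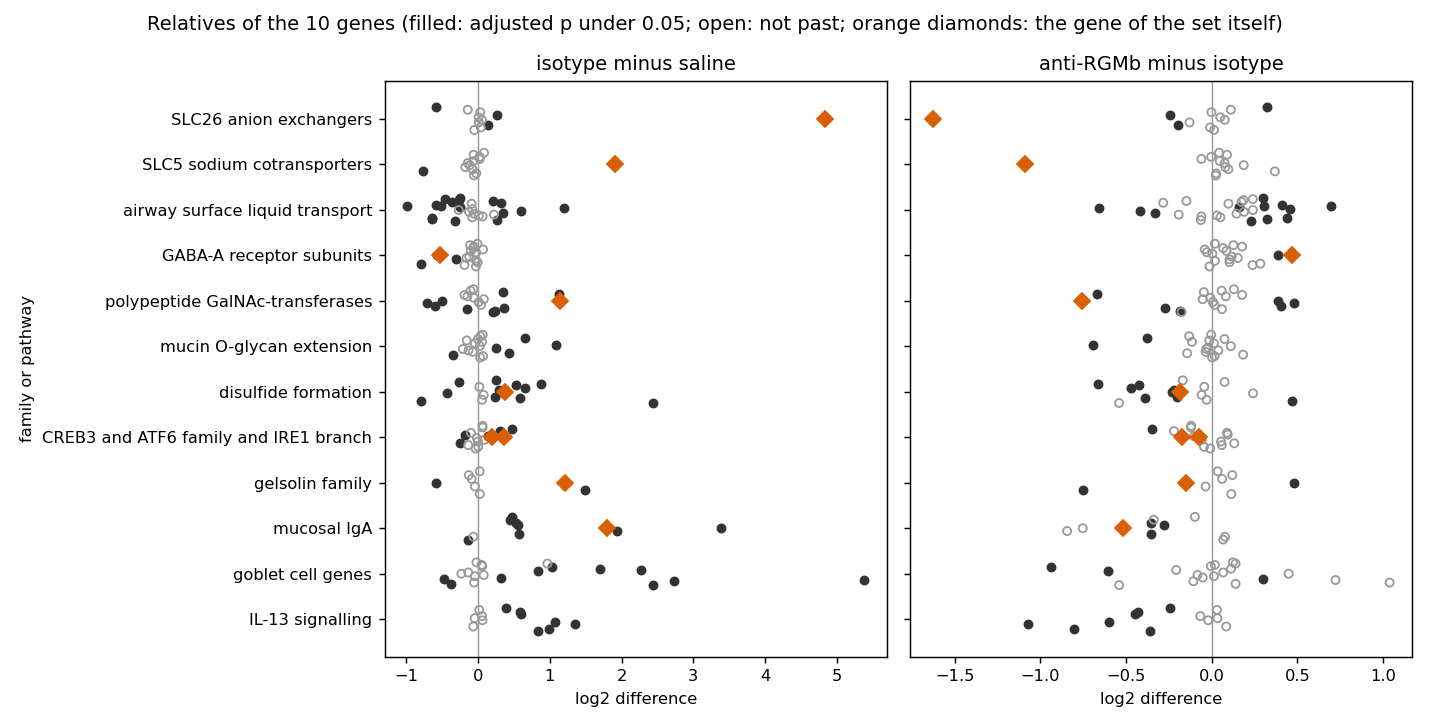
Log2 difference (horizontal axes) of each family or pathway relative of the 10 genes, 1 row for each list, for isotype minus saline and anti-RGMb minus isotype. Filled points have a limma adjusted p under 0.05, open points do not, and orange diamonds are the genes of the set; the highest SLC26 relative reaches 0.27 where Slc26a4 lies at 4.83.

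Among 17 other GalNAc-transferases, the enzymes that place the first mucin sugar, 5 rose, 4 fell and 8 did not pass with isotype. Galnt7, which acts on partly glycosylated mucin peptides, had differences like those of Galnt6: it rose by 1.12 ± 0.10 (adjusted p = 9.7e-08) and was lower under anti-RGMb (-0.67, adjusted p = 0.000123). Galnt15 moved the other way, at -0.71 (adjusted p = 1.2e-05) and 0.48 (adjusted p = 0.0014). Of 17 genes that extend mucin O-glycans, 4 rose, 1 fell and 12 did not pass. Gcnt1, which makes core branches and is also expressed by leukocytes, rose by 1.09 ± 0.13 (adjusted p = 2.7e-06) and was lower under anti-RGMb (-0.69, adjusted p = 0.000795).

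Disulfide formation is the step to which Qsox1 belongs. Of 15 other genes of it, 9 rose, 3 fell and 3 did not pass with isotype (median 0.25, against -0.04 over all genes), and 7 were lower and 1 higher under anti-RGMb (median -0.20, against 0.03). Prdx4, a peroxiredoxin of the endoplasmic reticulum, rose by 0.88 ± 0.11 (adjusted p = 4.5e-06) and was lower under anti-RGMb (-0.67, adjusted p = 0.000295). Ero1b, an oxidase of the same compartment, rose by 0.58 ± 0.06 (adjusted p = 9.2e-07) and Pdia4, a disulfide isomerase, by 0.66 ± 0.09 (adjusted p = 1.7e-05). Agr2 rose by 2.44 ± 0.41 (adjusted p = 0.000122), and under anti-RGMb it showed -0.54 ± 0.41 (adjusted p = 0.403). Plasma cells also make these folding enzymes, and of 8 plasma cell markers 5 rose and 2 fell with isotype and 2 were lower under anti-RGMb; their part in the list was not tested.

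In the list of the CREB3 and ATF6 families and the IRE1 branch, 3 of 14 genes rose, 2 fell and 9 did not pass with isotype, and 1 of 14 passed between anti-RGMb and isotype. Ern1, the widely expressed relative of Ern2, rose by 0.14 ± 0.05 (adjusted p = 0.0322), a call that was lost in 7 of the 17 fits that left out 1 mouse (saline 1, 2, 1-2 or 3-2 or isotype 2, 1-2 or 2-2). Xbp1, whose transcript IRE1 splices, showed 0.07 ± 0.08 (adjusted p = 0.596), and the array does not separate its spliced form. Creb3l2, the nearest relative of Creb3l1, fell by 0.25 ± 0.05 (adjusted p = 0.000421). Sec61b, a subunit of the translocation channel, rose by 0.47 ± 0.08 (adjusted p = 0.000154) and was lower under anti-RGMb (-0.35, adjusted p = 0.00471). In the gelsolin family, to which Scin belongs, 1 of 7 genes rose, 1 fell and 5 did not pass. Capg, the macrophage capping protein, rose by 1.50 ± 0.11 (adjusted p = 1.4e-08) and was lower under anti-RGMb (-0.75, adjusted p = 0.000143), and Gsn fell by 0.58 ± 0.07 (adjusted p = 4.6e-06) and was 0.48 higher under anti-RGMb (adjusted p = 0.000149).

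Around Pigr, 7 of 9 genes of mucosal IgA rose, 1 fell and 1 did not pass with isotype (median 0.53), and 3 were lower and 6 not past under anti-RGMb. Jchain, which joins IgA into the dimers that Pigr carries, rose by 3.39 ± 0.54 (adjusted p = 7.1e-05), with -0.75 ± 0.54 under anti-RGMb (adjusted p = 0.373). Fcamr, an Fc receptor for IgA and IgM encoded next to Pigr, rose by 0.57 ± 0.08 (adjusted p = 2.5e-05) and was lower under anti-RGMb (-0.35, adjusted p = 0.00473). Of 19 goblet cell genes, 8 rose, 2 fell and 9 did not pass, and between anti-RGMb and isotype 1 was higher, 2 were lower and 16 did not pass. The 2 lower genes were Retnlb, a secreted resistin-like protein (-0.94 ± 0.22, adjusted p = 0.00445, dim in 6 of 6 saline and 4 of 5 isotype arrays), and the membrane mucin Muc4 (-0.61 ± 0.15, adjusted p = 0.008). The higher gene was Foxa2, a transcription factor of airway epithelium (0.30 ± 0.07, adjusted p = 0.00321). Clca1 rose by 5.37 ± 0.64 (adjusted p = 3.2e-06) and Muc5ac by 2.27 ± 0.63 (adjusted p = 0.00864), with 0.72 ± 0.64 (adjusted p = 0.48) and -0.21 ± 0.63 (adjusted p = 0.855) under anti-RGMb against isotype. Spdef, the transcription factor of goblet cells, showed 0.06 ± 0.08 (adjusted p = 0.637). Of 12 genes of interleukin 13 signalling, 7 rose and 0 fell with isotype (median 0.49), and 7 were lower and 0 higher under anti-RGMb (median -0.30); 0 had an unadjusted limma p under 0.05 in the opposite direction in either comparison. Il13 itself rose by 0.99 ± 0.13 (adjusted p = 6.7e-06) and was lower under anti-RGMb (-0.80, adjusted p = 0.000207). Il13ra2, the decoy receptor, rose by 1.35 ± 0.10 (adjusted p = 1.9e-08) and was lower under anti-RGMb (-1.07, adjusted p = 4.0e-06), although it lay below the lower quartile of all genes in 6 of 6 saline and 5 of 5 isotype arrays.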

How the data were processed

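The authors deposited 1 intensity per probe set and array, on a linear scale, made with RMA (background correction, normalization and probe set summary) per the submitters' processing notes; for RMA no version is given in the sources used here. Levels differ between the 2 experiments, so experiment was a term in the main fits. The unit log2 was computed here from the deposited intensity. Of 24679 probe sets, 21354 carry 1 gene symbol, 1275 several and 2050 none; symbols come from the platform annotation, and where a gene had several probe sets (893 genes) the brightest was taken, leaving 19751 genes.

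Group means plus experiment were fitted to all 17 arrays with limma 3.58.1 in R 4.3.3 (lmFit and eBayes, prior degrees of freedom 4.32), 2-sided, with Benjamini-Hochberg adjustment over all genes and a threshold of 0.05. The within-experiment differences, the interaction and the residuals came from a fit with 1 mean for each group in each experiment. On simulated data for 19751 genes the fit recovered 90% of changes of 0.5 and 98% of changes of 1 (log2) for isotype minus saline, with 9 false among 197 calls, and 91.5% and 99.5% for anti-RGMb minus isotype, with 29 false among 411. For the interaction it recovered 92% of gaps of 1 and 100% of gaps of 2.

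The 10 genes and all lists were chosen with earlier results of these data known. Genes named from a list had the smallest p-values (up to 4 for isotype minus saline and 3 for anti-RGMb minus isotype) or are partners of a member named beforehand (Cftr, Ern1, Xbp1, Muc5ac, Spdef, Jchain, Il13); Agr2 and Clca1 also enter as closest genes. Same-numbered mice of different groups did not deviate together (r -0.60 to 0.30 over 16 pairs, 3 above 0.1), so mice were unpaired. The number of arrays limits the precision, and values below an array's lower quartile are compressed. Alternatives were no experiment term, experiment as a random block, a replicate block, quantile normalization, median centring, the mean of probe sets, the dimmest 40% of genes left out, an intensity trend, each experiment alone and leaving out each mouse. Promoter sequences are from RefSeq (GRCm38.p6).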

Additional observations from a re-analysis of the deposited data

Results flagged for a closer look

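Among 30 sets of a member's values in a group, 1 held a mouse far from the others: Pigr in anti-RGMb mouse 2-2 was 0.62 log2 units above the saline mean, where the other 5 anti-RGMb mice lay at 1.25 to 1.59, a gap of 0.646 of the group's range. Chance gives about 1 such mouse in 20 sets. The same mouse had the lowest Scin and the lowest goblet marker mean of its group (0.06 and 0.82). Of 30 tests of a difference between the experiments, 2 passed the threshold, both for Galnt6: the isotype minus saline difference was 0.68 larger in experiment 2 (limma adjusted p = 0.0309), and the anti-RGMb minus isotype difference changed by -0.80 (limma adjusted p = 0.0222). The 2 share the isotype mice, of which experiment 2 holds 2.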

How the results depend on the processing

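Of 6144 values of single genes under alternatives, 5708 kept direction and side of the threshold, 269 no longer passed it, 64 newly passed and 103 changed sign. Of these, 101 were not past the threshold before or after, such as Scin and Ern2 for anti-RGMb minus isotype without isotype mouse 2. The other 2 were past it before, both for isotype minus saline without the experiment term: Ern1 (-0.029) and Slc26a11 (-0.0293). The cause was not tested. Without that term, genes past the threshold were 35 for isotype minus saline, 0 for anti-RGMb minus isotype and 10 for anti-RGMb minus saline, and members 2, 0 and 1 (limma; at an unadjusted p under 0.05, the second had 73 genes and 1 member). Within experiment 1 they were 4025, 1279 and 763 genes, and within experiment 2, for anti-RGMb minus saline, 653, with fewer mice in each. With the mouse label as a replicate block there were 6196, 3358 and 944 genes and 9, 4 and 3 members; the paired fit lost Creb3l1 in the first comparison, Pigr and Qsox1 in the second and Qsox1 in the third. Leaving out each mouse gave 6458 to 7358, 3581 to 4466 and 913 to 1540 genes, and 8 to 10, 4 to 7 and 3 to 7 members, the 7 in the third without isotype mouse 3. For the difference between experiments it gave 74 to 445 genes for isotype minus saline (132 with all mice) and 24 to 811 for anti-RGMb minus isotype (93 with all mice). Both upper ends came without isotype mouse 1-2, which leaves 1 isotype mouse in experiment 2. The first count also moved by over 1.5 times without saline mouse 2, 3, 1-2 or 3-2 or isotype mouse 3, and the second without any anti-RGMb mouse, saline mouse 3, 1-2, 2-2 or 3-2 or isotype mouse 3 or 2-2. Signal near background limits the sizes for Itln1, Scin and Slc26a4 against saline.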
